A study of Homo sapiens with 7 samples.

Results

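The ephrin, Eph, semaphorin, plexin and neuropilin genes are the ligands and receptors of a pair of cell guidance systems, and they were followed through the induction of the histone demethylase JMJD3c in hESCs. Members were chosen by gene symbol alone: the EphA, EphB, ephrin-A, ephrin-B, class 3 to 7 semaphorin, plexin and neuropilin genes with an entry on a chromosome, which gave 52 genes out of 20187 entries on chromosomes. SEMA3B is listed only on a patch sequence, at 0 FPKM in every library, and is not a member. EFNA3 has 2 entries on chromosome 1, of which the one with the higher mean was used. SEES-3 hESCs, an established human embryonic stem cell line, carried either JMJD3c, the catalytic part of JMJD3 with an HA tag and a nuclear localization signal, or the JMJD3c mutant, which lacks catalytic activity through a point mutation. Both were piggyBac insertions under a Tet-responsive element in cells that express the reverse Tet-transactivator, selected with puromycin as stable clones, and all were kept without feeders in StemFit AK-03. For JMJD3c-hESCs there was a library before doxycycline (Dox; Day 0) and 1 after each of Days 1, 2, 3 and 4 with 1 µg/ml Dox. For JMJD3c mut-hESCs there was 1 library without Dox and 1 after Day 4 with it. This gives 1 library for each of 7 conditions, so differences cannot be checked against replicates and p-values are not given. Whether the libraries of a line came from 1 clone or several is not given in the sources used here.

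Eph receptors are receptor tyrosine kinases whose ligands, the ephrins, sit on the surface of neighboring cells. EphA receptors mainly bind A-type ephrins, which are held by a lipid anchor, and EphB receptors mainly bind B-type ephrins, which cross the membrane. Contact signals into both cells and often ends in repulsion, which sets boundaries between tissues and steers axons and migrating cells. Semaphorins are secreted (class 3), transmembrane (classes 4 to 6) or lipid-anchored (class 7) ligands of the plexins, and most secreted ones also need a neuropilin. Both systems act in gastrulation, in which pluripotent cells leave the epiblast as mesoderm and endoderm, as well as in the nervous system and blood vessels.

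The authors' values are FPKM, read fragments scaled to exon length and to the mapped reads of the library, each with a Cufflinks 95% interval that covers the estimation within a single library but no spread among cultures. FPKM is per length, so levels can be compared between genes. From the spacing of low values, between 1770000 (Day 0) and 3660000 (mutant without Dox) mapped reads were estimated per library, which makes the Day 0 reference the shallowest. The commonest step was taken as 1 read. If it stood for 2 reads, these depths and all reads per gene given here would be 2 times as high and the limits from 3 reads lower by the same factor, while the order of the libraries would not change. With the cutoffs of the study, upregulated means an FPKM ratio over 2 where the treated library exceeds 4 FPKM, and downregulated means a ratio under 0.5 where the untreated library exceeds 4 FPKM. Log2 fold changes were calculated after adding 1 to each FPKM, which understates changes of low genes. The 10 pluripotent stem cell markers summed to between 2062 FPKM (Day 4) and 2985 FPKM (Day 0), so the pluripotent label of the cells is matched by their markers, 3 of which were downregulated at Day 4. Markers of other cell types moved along the time course. The 12 mesendoderm markers summed to 6.35 FPKM at Day 0, 353 at Day 4 and 15.0 and 10.4 in the mutant line without and with Dox, and 11 of them were upregulated at Day 4. The 10 neural ectoderm markers summed to between 117 and 189 FPKM in the JMJD3c line and to 91.3 and 126 FPKM in the mutant line, most of it NES, with ZIC1 and PAX6 upregulated and NEUROG2 at 0 in every library. The 5 endothelial markers found summed to between 7.01 and 14.3 FPKM, most of it KDR, which was downregulated at Day 4 (13.1 FPKM at Day 0, 3.79 at Day 4). CDH5 and ESAM went the other way, from 0 FPKM at Day 0 to 1.27 and 1.26 at Day 4. CLDN5 and TEK did not exceed 1.32 FPKM. The 6 neural crest markers summed to between 11.2 and 16.5 FPKM, most of it FOXD3 (10.5 to 14.3 FPKM), with TFAP2B at 0 in all libraries but Day 4. The part of these markers in the results below was not tested, and in bulk RNA a change in the number of cells of a type cannot be told apart from a change in RNA per cell.

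Most of the guidance genes were expressed in hESCs. The mean over the 7 libraries was above 10 FPKM for 15 of the 52 genes, above 4 for 24 and above 1 for 41, while 7 genes (EPHA3, EPHA5, EPHA6, EPHA10, PLXNA4, PLXNB3 and SEMA3G) were at or below 1 FPKM in every library. SEMA6A was by far the highest, at a mean of 109 FPKM and 22.8% of the summed FPKM of all members, followed by EPHA1 at 54.3, EPHB4 at 31.4 and SEMA4C at 25.8 FPKM. EPHA5 was listed above 0 only at Day 2, at 0.0624 FPKM, and 3 reads would have given 0.206 FPKM at Day 0, so low expression could be missed at this depth. This and similar limits cover counting error only.

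**Figure D1:**
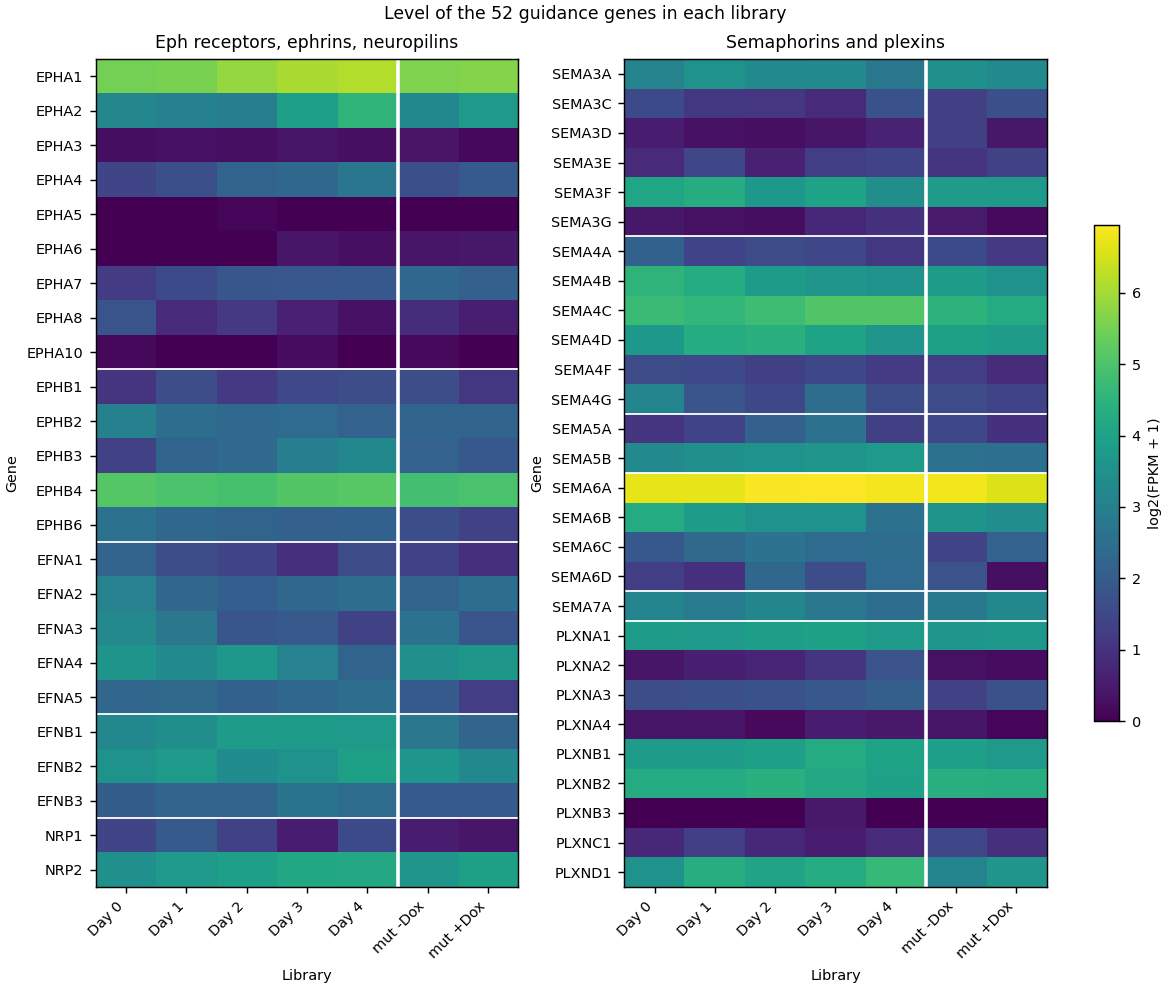
Each row is 1 of the 52 genes and each column 1 library, with color giving log2(FPKM + 1), and white lines separating the families and the JMJD3c line from the mutant line (mut). SEMA6A and EPHA1 are the brightest rows in every library, and EPHA1 grows brighter from 44.3 FPKM at Day 0 to 69.8 at Day 4.

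At Day 4, 31 of the 52 genes had a higher FPKM than at Day 0 and 19 had a lower one. Among members above 1 FPKM in a library, 60% were higher and 40% lower, against 45.3% and 53.5% of all such genes. The cutoffs were passed by 5 genes as upregulated (EPHA2, EPHA4, EPHB3, PLXND1 and SEMA6D) and by 6 as downregulated (EFNA3, EFNA4, EPHB2, SEMA4B, SEMA4G and SEMA6B), out of 31 with more than 4 FPKM in either library. These are shares of 16.1% and 19.4%, against 5.87% and 7.56% of all 10247 genes above 4 FPKM. Those genes were not matched to the members by level, and the part of level in these shares was not tested. All of the downregulated members but EFNA4 had the highest of their values in the 7 libraries at Day 0, which has no replicate. Cufflinks intervals were apart for 2 of the upregulated genes (EPHA2 and EPHB3) and 3 of the downregulated genes (EFNA3, EFNA4 and SEMA6B). The median log2 fold change was 0.11 over the members and 0.00 over all genes, and among genes above 1 FPKM in a library it was 0.15 and -0.04. At Day 1 no member was upregulated and 1 was downregulated, of 27 above 4 FPKM in either library (background 3.48% and 3.27%). At Day 2 there were 2 and 3 of 28 (3.9% and 4.24%), and at Day 3 there were 3 and 1 of 30 (4.73% and 4.48%).

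Because Day 0 had no replicate, Day 4 was also set against both mutant libraries, which lack active JMJD3c. These comparisons share the Day 4 library. Against the mutant line without Dox, 29 members had more than 4 FPKM in either library. Of these, 7 were upregulated (EFNB1, EPHA2, EPHA4, EPHB3, PLXND1, SEMA5B and SEMA6C), or 24.1% against a background of 7.05%. Downregulated were 3 (EFNA3, EFNA4 and SEMA6B), or 10.3% against 3.9%. Against the mutant line with Dox, 6 of 27 were upregulated (EFNA5, EFNB1, EPHB3, PLXND1, SEMA5B and SEMA6D), or 22.2% against 6.56%. Only EFNA4 was downregulated, or 3.7% against 3%, near the share of all genes. EPHB3 and PLXND1 were past the cutoffs above each of the 3 libraries (2 of 32 members, against 2.64% of all genes), and EFNA4 was below each of them (1 of 32, against 0.741%). In 7 of the 45 members above 1 FPKM, the values of Days 1 to 4 all lay above the 3 libraries without active JMJD3c (EFNB1, EFNB3, EPHB3, PLXNA2, PLXND1, SEMA5B and SEMA6C), which is 15.6% against 7.36% of all genes. In 0 of the 45 they all lay below (6.34% of all genes). In the JMJD3c line, 8 of the 45 members had a higher FPKM at every step from Day 0 to Day 4 (EPHA1, EPHA4, EPHA7, EPHB3, NRP2, PLXNA2, PLXNA3 and SEMA5B), or 17.8% against 3.03% of all genes, and 2 had a lower one at every step (SEMA4B and SEMA6B; 3.24% of all genes). Taking Days 3 and 4 alone, 16 of the 45 lay above the 3 libraries on both days (16.8% of all genes) and 3 lay below (15% of all genes). Day 4 alone lay above all 3 libraries for 22 of the 45 (26.4% of all genes) and below them for 11 (29% of all genes). Days and lines are not replicates of each other, and these counts were not tested.

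**Figure D2:**
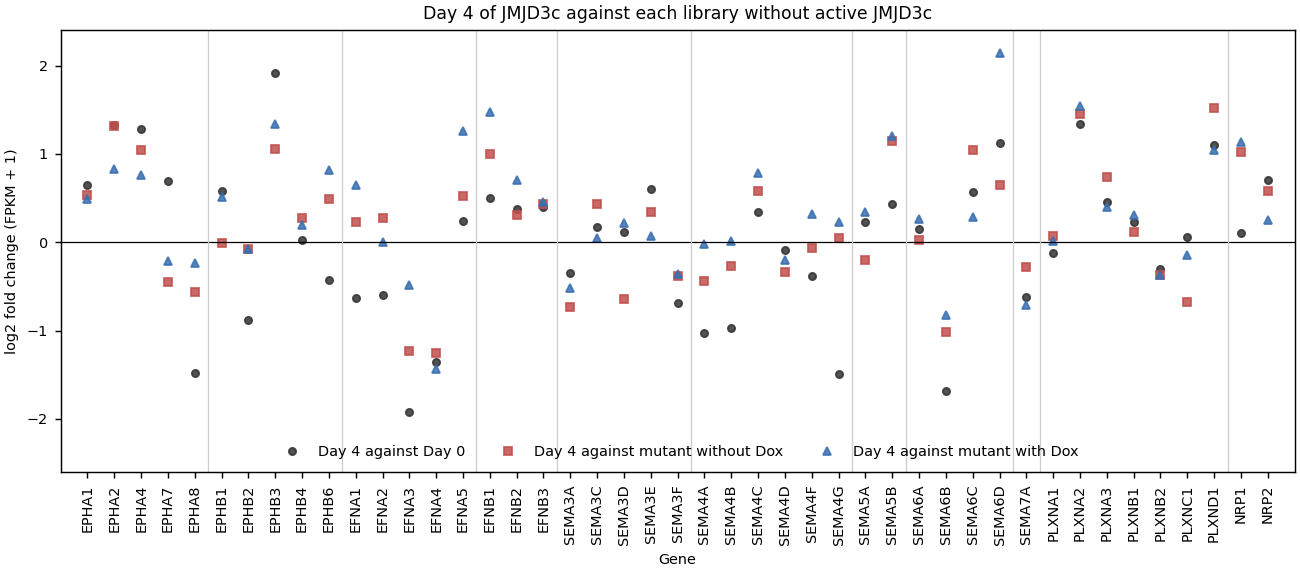
For each member above 1 FPKM in a library, the log2 fold change of Day 4 (after adding 1 FPKM) is plotted against Day 0, the mutant line without Dox and the mutant line with Dox, with grey lines between families. All 3 points of EPHB3, PLXND1 and PLXNA2 lie above 1, all 3 of EFNA4 lie below -1, and the 3 points of SEMA4G lie far apart, from -1.49 to 0.23.

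The promoters of the genes past the cutoffs against all 3 libraries are shown because JMJD3c acts on chromatin and CpG-rich promoters are where H3K27me3, its substrate, is mostly found in pluripotent cells. RefSeq promoter sequences (GRCh38.p14, 250 bases before to 50 after the start) matched 46 of the 52 members, without EFNB3, EPHA10, NRP1, SEMA3A, SEMA6A and SEMA6B. The CpG ratio, observed over expected from the C and G content, was above 0.6 in 32 of the 46 (69.6%), against 65.8% of 15843 protein-coding promoters. It was above 0.6 for all 5 upregulated genes and for the 5 downregulated genes with a sequence. EPHB3 (chr3:184561535-184561834, + strand) holds 26 CpGs, PLXND1 (chr3:129606627-129606926, - strand) holds 52 and EFNA4 (chr1:155063490-155063789, + strand) holds 20. They are written 5′ to 3′ with each CG in capitals, and CGs are spread along the window in each. The part of CpGs in the direction of change was not tested.
EPHB3: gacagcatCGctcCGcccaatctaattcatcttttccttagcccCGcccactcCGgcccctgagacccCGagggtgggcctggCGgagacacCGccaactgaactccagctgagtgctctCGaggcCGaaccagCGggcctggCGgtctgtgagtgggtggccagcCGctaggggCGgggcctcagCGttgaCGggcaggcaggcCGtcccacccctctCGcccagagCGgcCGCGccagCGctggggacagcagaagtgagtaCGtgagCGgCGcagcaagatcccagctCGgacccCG
PLXND1: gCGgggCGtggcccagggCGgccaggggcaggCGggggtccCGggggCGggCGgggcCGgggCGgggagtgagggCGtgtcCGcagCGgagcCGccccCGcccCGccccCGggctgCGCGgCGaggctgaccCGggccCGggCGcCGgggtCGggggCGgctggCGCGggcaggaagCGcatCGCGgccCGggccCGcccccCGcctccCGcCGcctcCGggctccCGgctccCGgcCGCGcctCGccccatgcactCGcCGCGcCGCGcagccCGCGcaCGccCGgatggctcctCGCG
EFNA4: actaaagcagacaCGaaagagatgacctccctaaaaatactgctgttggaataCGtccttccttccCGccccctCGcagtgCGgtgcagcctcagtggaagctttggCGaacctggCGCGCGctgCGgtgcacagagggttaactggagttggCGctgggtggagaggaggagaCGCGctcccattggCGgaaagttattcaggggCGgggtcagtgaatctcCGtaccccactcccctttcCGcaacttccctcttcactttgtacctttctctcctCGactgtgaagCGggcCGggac

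SEMA5B (chr3:123028556-123028855, - strand) is shown for contrast, as it was also higher at Day 4 than in both mutant libraries but has only 7 CpGs, a ratio of 0.588 and 42.0% GC. Letters of binding motifs were searched on both strands. The T-box letters GGTGTGA were found in 1 of the 46 promoters (2.17%, against 3.25% of the 15843 protein-coding promoters) and the GATA letters AGATAA in 4 (8.70% against 7.57%). The TCF/LEF letters CTTTGAT were found in 1 (2.17% against 1.94%) and the forkhead letters TGTTTAC in 2 (4.35% against 2.61%). The E-box letters CAGGTG were found in 10 (21.7% against 19.9%). None of these letters was found in the windows of EPHB3, PLXND1 or EFNA4. SEMA5B holds a GATA and a forkhead match, both on the reverse strand, not overlapping and in capitals here.
SEMA5B: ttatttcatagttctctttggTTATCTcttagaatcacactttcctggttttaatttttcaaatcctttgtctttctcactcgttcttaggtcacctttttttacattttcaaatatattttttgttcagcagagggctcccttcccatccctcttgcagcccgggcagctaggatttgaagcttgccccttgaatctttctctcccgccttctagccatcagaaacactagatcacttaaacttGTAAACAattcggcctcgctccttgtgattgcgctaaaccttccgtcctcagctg

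The EphA receptors had a higher summed level at Days 2 to 4 than before Dox. The summed FPKM of the 9 EPHA genes was 58.5, 58.3, 71.6, 88.3 and 101.6 over Days 0 to 4, and 64.3 and 69.2 in the mutant line without and with Dox. Day 4 was thus 1.74 times Day 0, 1.58 times the mutant without Dox and 1.47 times the mutant with Dox. EPHA1 made up 74.3% of the mean sum, and without it Day 4 was 2.23 times Day 0. EPHA1 (ENSG00000146904, chromosome 7 of hg19, 143088205 to 143105985), a receptor for ephrin-A1, was listed at 44.3, 45.7, 57.0, 66.0 and 69.8 FPKM at Days 0 to 4, and at 47.9 and 49.6 FPKM in the mutant line. Its Day 4 interval, 61.0 to 75.8 FPKM, was apart from those of Day 0 and both mutant libraries, but its ratio to Day 0, 1.58, was below the cutoff.

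EPHA2 and EPHA4 were the EphA genes that passed the cutoffs. EPHA2 (ENSG00000142627, chromosome 1, 16450832 to 16482582), the main receptor of ephrin-A1 in epithelia, was listed at 8.36, 7.38, 6.85, 14.1 and 22.6 FPKM over Days 0 to 4, with 8.48 and 12.3 FPKM in the mutant line without and with Dox. It was thus at its untreated level until Day 2 and highest at Day 4, with a log2 fold change of 1.33 (interval 18.9 to 26.1 FPKM, apart from 6.24 to 10.6 at Day 0). Against the mutant with Dox its ratio was 1.84. EPHA4 (ENSG00000116106, chromosome 2, 222282749 to 222438922), which can bind ephrins of both types, was listed at 1.74, 2.24, 3.65, 4.08 and 5.68 FPKM at Days 0 to 4, and at 2.24 and 2.94 FPKM in the mutant line. Its ratio was 3.26 against Day 0 and 1.93 against the mutant with Dox, and its wide intervals overlapped (3.52 to 11.1 at Day 4 and 0.823 to 9.38 at Day 0).

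Among the other EphA genes, EPHA7 had 1.34 FPKM before Dox and 2.76 at Day 4, while its highest value, 4.12 FPKM, was that of the mutant line without Dox. EPHA8 was highest at Day 0, at 2.50 FPKM, and lowest at Day 4, at 0.261, with 0.868 and 0.487 FPKM in the mutant line. EPHA3, EPHA5, EPHA6 and EPHA10, the last of which lacks kinase activity, did not exceed 0.355 FPKM in any library.

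EphB receptors differed among themselves. EPHB3 (ENSG00000182580, chromosome 3, 184279572 to 184300197), a Wnt target in the intestine that helps to position cells there, was listed at 1.53, 3.72, 4.16, 6.91 and 8.54 FPKM over Days 0 to 4. The mutant line had 3.58 FPKM without and 2.78 with Dox. All 4 days of Dox lay above the 3 libraries without active JMJD3c, although Day 1 exceeded the untreated mutant line by little. The Day 4 interval, 6.68 to 10.4 FPKM, was apart from those of Day 0 (0.663 to 2.39) and of both mutant libraries. The log2 fold change was 1.91 against Day 0 and 1.06 against the mutant without Dox, so its size depended on the untreated library. The Day 0 value corresponds to about 11 reads and the Day 4 value to about 84.

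EPHB4 (ENSG00000196411), the receptor of ephrin-B2 in vein endothelium, was the highest EphB gene and stayed within 28.3 and 34.6 FPKM in all 7 libraries, with a Day 4 to Day 0 ratio of 1.02. EPHB2, a receptor of B-type ephrins, was listed at 7.27, 4.74, 4.22, 4.38 and 3.51 FPKM at Days 0 to 4 and at 3.74 and 3.75 FPKM in the mutant line. It passed the cutoff against Day 0, at a ratio of 0.483, but was at 0.937 of either mutant library, so the call was made against Day 0 only, and it ended (ratio 0.503) when libraries were rescaled to their median ratio. EPHB1 was listed between 1.09 and 2.12 FPKM and EPHB6, which lacks kinase activity, between 1.55 and 5.05 FPKM. The sum of the 5 EPHB genes was 48.9 FPKM at Day 0, 52.3 at Day 4 and 40.0 and 39.5 in the mutant line.

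At Day 4 the summed level of A-type ephrins was lower, and that of B-type ephrins higher, than in each library without active JMJD3c. Among the A-type genes, EFNA3 and EFNA4 lay below all 3 of these libraries at Day 4 (29% of all genes). EFNA5 lay above them (26.4% of all genes), and EFNA1 and EFNA2 lay within their range. All 3 B-type genes lay above them. The 5 EFNA genes summed to 34.9, 24.99, 23.1, 19.2 and 16.7 FPKM at Days 0 to 4, and to 23.5 and 21.4 FPKM in the mutant line. Day 4 was 0.479 of Day 0, 0.710 of the mutant without Dox and 0.781 of the mutant with Dox, and a high Day 0 and a low mutant line cannot be told apart. The 3 EFNB genes summed to 22.6, 26.4, 26.3, 28.8 and 31.4 FPKM at Days 0 to 4, and to 20.3 and 15.4 FPKM in the mutant line, so that Day 4 was 1.39 times Day 0 and 2.04 times the mutant with Dox. The ratio of summed EPHA to summed EFNA FPKM was 1.68, 2.33, 3.10, 4.59 and 6.08 over Days 0 to 4, against 2.73 and 3.23 in the mutant line. The ratio of EPHB to EFNB sums stayed between 1.63 and 2.57 in the 7 libraries.

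EFNA3 and EFNA4 were the A-type ephrins called at Day 4 against Day 0. EFNA4 (ENSG00000243364, chromosome 1, 155036207 to 155042029) was listed at 11.1, 9.01, 12.1, 7.49 and 3.75 FPKM over Days 0 to 4, and at 10.3 and 11.8 FPKM in the mutant line. Day 4 stood below every other library, and its interval, 1.41 to 6.06 FPKM, was apart from all 3 libraries without active JMJD3c. EFNA3 (ENSG00000143590, chromosome 1, 155036224 to 155060014) was listed at 8.70, 5.70, 2.61, 2.81 and 1.56 FPKM at Days 0 to 4 and at 5.01 and 2.58 FPKM in the mutant line. EFNA3 was therefore also low in the mutant line with Dox, whose interval of 0.769 to 4.34 FPKM overlapped that of Day 4, 0 to 3.84, which rests on about 6 reads. The entries of EFNA3 and EFNA4 overlap in the authors' annotation, and reads could be assigned to either. The second EFNA3 entry (155036224 to 155059283) overlaps both, so reads could also be assigned to it, and its values are not given here. Without that second entry, EFNA3 and EFNA4 summed to 19.8, 14.7, 14.7, 10.3 and 5.31 FPKM at Days 0 to 4, and to 15.3 and 14.4 FPKM in the mutant line. Day 4 was thus 0.268, 0.347 and 0.368 of the 3 libraries without active JMJD3c. EFNA1, the ligand of EPHA1 and EPHA2, lies next to EFNA3 on chromosome 1 and was listed at 3.62 FPKM at Day 0 and between 0.905 and 2.11 in the other libraries. EFNA2 was likewise highest at Day 0, at 7.53 FPKM, against 3.20 to 4.66 elsewhere. EFNA5 was highest at Day 4, at 4.76 FPKM, and lowest in the mutant with Dox, at 1.40.

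EFNB1 (ENSG00000090776, chromosome X, 68048840 to 68061990), a ligand of EphB receptors that sets boundaries in the developing skull, was listed at 8.49, 10.001, 13.3, 12.7 and 12.4 FPKM at Days 0 to 4. The mutant line had 5.69 FPKM without and 3.81 with Dox. All induced days exceeded the libraries without active JMJD3c, but the ratio of Day 4 was 1.46 against Day 0, 2.18 against the untreated mutant and 3.25 against the Dox-treated mutant, so the calls rested on the mutant line, which differed from Day 0 before Dox. EFNB2, the arterial ligand of EPHB4, was listed between 8.57 FPKM (mutant with Dox) and 14.5 FPKM (Day 4). EFNB3 was listed at 3.16, 3.85, 3.60, 5.39 and 4.48 FPKM at Days 0 to 4 and at 3.07 and 2.99 FPKM in the mutant line. Days 1 to 4 lay above the 3 libraries without active JMJD3c, but its Day 4 interval, 2.93 to 5.98 FPKM, overlapped all 3 of the others.

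**Figure D3:**
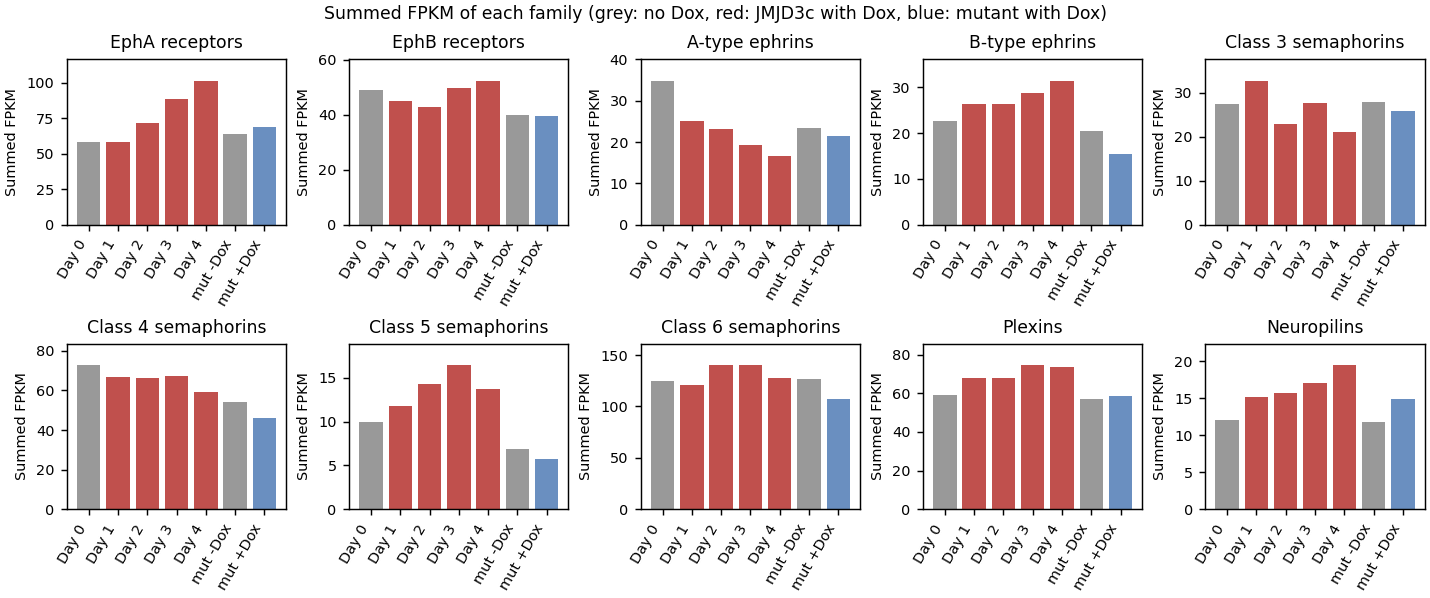
Bars give the summed FPKM of the genes of a family in each library, on axes that start at 0, in grey without Dox, red for JMJD3c with Dox and blue for the mutant with Dox. EphA receptors climb from 58.5 to 101.6 FPKM while A-type ephrins descend from 34.9 to 16.7 FPKM along the JMJD3c days, and class 6 semaphorins stay between 107.7 and 140.0 FPKM.

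Among class 6 semaphorins, the highest gene passed no cutoff and SEMA6B was downregulated. SEMA6A (ENSG00000092421, chromosome 5, 115779312 to 115910630), a transmembrane ligand of PLXNA2 and PLXNA4, was listed at 101.9, 101.9, 119.8, 122.8 and 113.3 FPKM at Days 0 to 4 and at 111.1 and 94.3 FPKM in the mutant line. It was the only member whose intervals with and without Dox were apart in the mutant line, at a log2 fold change of -0.24. SEMA6B (ENSG00000167680, chromosome 19, 4542600 to 4559820), a ligand of the same plexins, was listed at 18.3, 13.4, 10.95, 10.6 and 5.02 FPKM over Days 0 to 4, and at 11.1 and 9.67 FPKM in the mutant line. The values of Days 2 and 3 were thus at the level of the mutant line, and only Day 4 (3.49 to 6.64 FPKM) was below all 3 libraries without active JMJD3c, with its interval apart from each. Its ratio was 0.274 against Day 0, 0.450 against the untreated mutant and 0.519 against the Dox-treated mutant. SEMA6C was listed at 2.76 FPKM at Day 0 and 4.27 to 5.32 on the days of Dox, but in the mutant line it also had 1.71 FPKM without and 3.55 with Dox, with overlapping intervals. SEMA6D (ENSG00000137872), a ligand of PLXNA1, went back and forth at 1.46, 0.956, 4.01, 2.11 and 4.37 FPKM and was listed at 2.42 and 0.218 FPKM in the mutant line, with an interval from 0 to 10.1 FPKM at Day 0, and its call at Day 4 is therefore uncertain.

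Of the class 5 semaphorins, SEMA5B was upregulated against both mutant libraries but not against Day 0. SEMA5B (ENSG00000082684, chromosome 3, 122628041 to 122746659), a transmembrane guidance cue with thrombospondin repeats, was listed at 8.86, 10.2, 10.9, 11.4 and 12.3 FPKM at Days 0 to 4 and at 4.99 and 4.78 FPKM in the mutant line. Its ratio at Day 4 was 2.46 and 2.57 against the mutant libraries with intervals apart, but 1.38 against Day 0 with intervals overlapping, and the untreated lines themselves differed by a ratio of 0.563. SEMA5A was highest at Day 3, at 5.04 FPKM, and was listed at 1.49 FPKM at Day 4, within the 0.971 to 1.86 FPKM of the libraries without active JMJD3c. Its wide Day 3 interval, 1.53 to 8.98 FPKM, overlapped those of Day 0 (0.340 to 3.85), Day 4 (0.710 to 3.56) and the untreated mutant line (0.448 to 3.67).

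Class 4 semaphorins, transmembrane ligands of B plexins for the most part, summed to 72.7 FPKM at Day 0, 59.0 at Day 4 and 54.4 and 45.9 in the mutant line. SEMA4C, the ligand of PLXNB2 and the highest of them, was listed at 25.5, 23.1, 26.9, 32.4 and 32.5 FPKM at Days 0 to 4 and at 21.5 and 18.5 FPKM in the mutant line. SEMA4B was listed at 22.0, 18.7, 13.4, 11.3 and 10.7 FPKM at Days 0 to 4, past the cutoff at Day 4 with a ratio of 0.486 (0.506 and not called after rescaling), but at 13.03 and 10.6 FPKM in the mutant line. SEMA4G was listed at 7.75, 2.58, 1.84, 4.62 and 2.11 FPKM at Days 0 to 4 and at 2.01 and 1.66 FPKM in the mutant line. Day 0 was the highest of its 7 values, and against the untreated mutant line the log2 fold change was 0.05 in place of -1.49. SEMA4D, the ligand of PLXNB1, was listed between 11.2 (Day 4) and 20.5 FPKM (Day 2), and SEMA4A and SEMA4F did not exceed 3.44 FPKM.

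The secreted class 3 semaphorins had no call. SEMA3F, a repellent that acts through NRP2, was the highest at 16.3, 18.6, 12.01, 15.4 and 9.73 FPKM at Days 0 to 4, with 13.01 and 12.8 FPKM in the mutant line. SEMA3A, which acts through NRP1, was listed between 5.83 (Day 4) and 10.6 FPKM (Day 1). Both had their lowest value at Day 4, with an interval that overlapped those of the 3 libraries without active JMJD3c. SEMA3C, SEMA3D, SEMA3E and SEMA3G did not exceed 2.35 FPKM. SEMA3A, SEMA3C, SEMA3D and SEMA3E all lie on chromosome 7. SEMA7A, the lipid-anchored ligand of PLXNC1 and of integrins, was listed at 7.85, 6.10, 8.20, 5.93 and 4.75 FPKM at Days 0 to 4 and at 5.98 and 8.41 FPKM in the mutant line.

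Plexins and neuropilins, the receptors, were higher on the days of Dox for a few members. The 9 plexin genes summed to 59.1, 67.7, 67.8, 74.5 and 73.6 FPKM at Days 0 to 4 and to 56.9 and 58.5 FPKM in the mutant line. PLXND1 (ENSG00000004399, chromosome 3, 129274018 to 129325661), the receptor of SEMA3E in blood vessels, was listed at 10.8, 19.1, 15.8, 18.9 and 24.3 FPKM over Days 0 to 4. The mutant line had 7.79 FPKM without and 11.3 with Dox, so all 4 days of Dox lay above the other libraries from Day 1 on. The ratio at Day 4 was 2.25 against Day 0, with overlapping intervals (16.2 to 32.1 and 5.05 to 16.5 FPKM), and 3.12 and 2.15 against the mutant libraries, with intervals apart. In the mutant line itself the ratio with Dox was 1.45.

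PLXNA2 (ENSG00000076356, chromosome 1, 208195587 to 208417665), a receptor of SEMA6A and SEMA6B, was low but had a ratio to Day 0 of 6.89. It was listed at 0.350, 0.534, 0.635, 1.11 and 2.41 FPKM over Days 0 to 4, and at 0.242 and 0.166 FPKM in the mutant line. This ratio corresponds to a log2 fold change of 1.34 with 1 FPKM added, and to a change from about 7 to about 66 reads. It did not reach 4 FPKM and so could not be called, but its Day 4 interval, 1.83 to 2.98 FPKM, was apart from all 3 libraries without active JMJD3c. PLXNB2 (ENSG00000196576), the highest plexin on average, was listed between 14.8 (Day 4) and 20.2 FPKM (Day 2). PLXNA1 stayed within 11.6 and 14.7 FPKM and PLXNB1 within 12.3 and 18.6 FPKM, the latter highest at Day 3. PLXNA3 had 2.14 FPKM before Dox and 3.32 at Day 4, PLXNC1 did not exceed 1.81 FPKM, and PLXNA4 and PLXNB3 did not exceed 0.483 FPKM.

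NRP2 (ENSG00000118257), the co-receptor of SEMA3F, was listed at 10.3, 12.3, 14.1, 16.6 and 17.5 FPKM at Days 0 to 4 and at 11.4 and 14.5 FPKM in the mutant line. Its steps were in 1 direction, but the intervals of Day 4 (11.8 to 23.1 FPKM) and Day 0 (5.51 to 15.6 FPKM) overlapped and the mutant with Dox was above the mutant without. NRP1, the co-receptor of SEMA3A and of VEGF, was listed between 0.349 and 2.88 FPKM without a common order of the days.

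**Figure D4:**
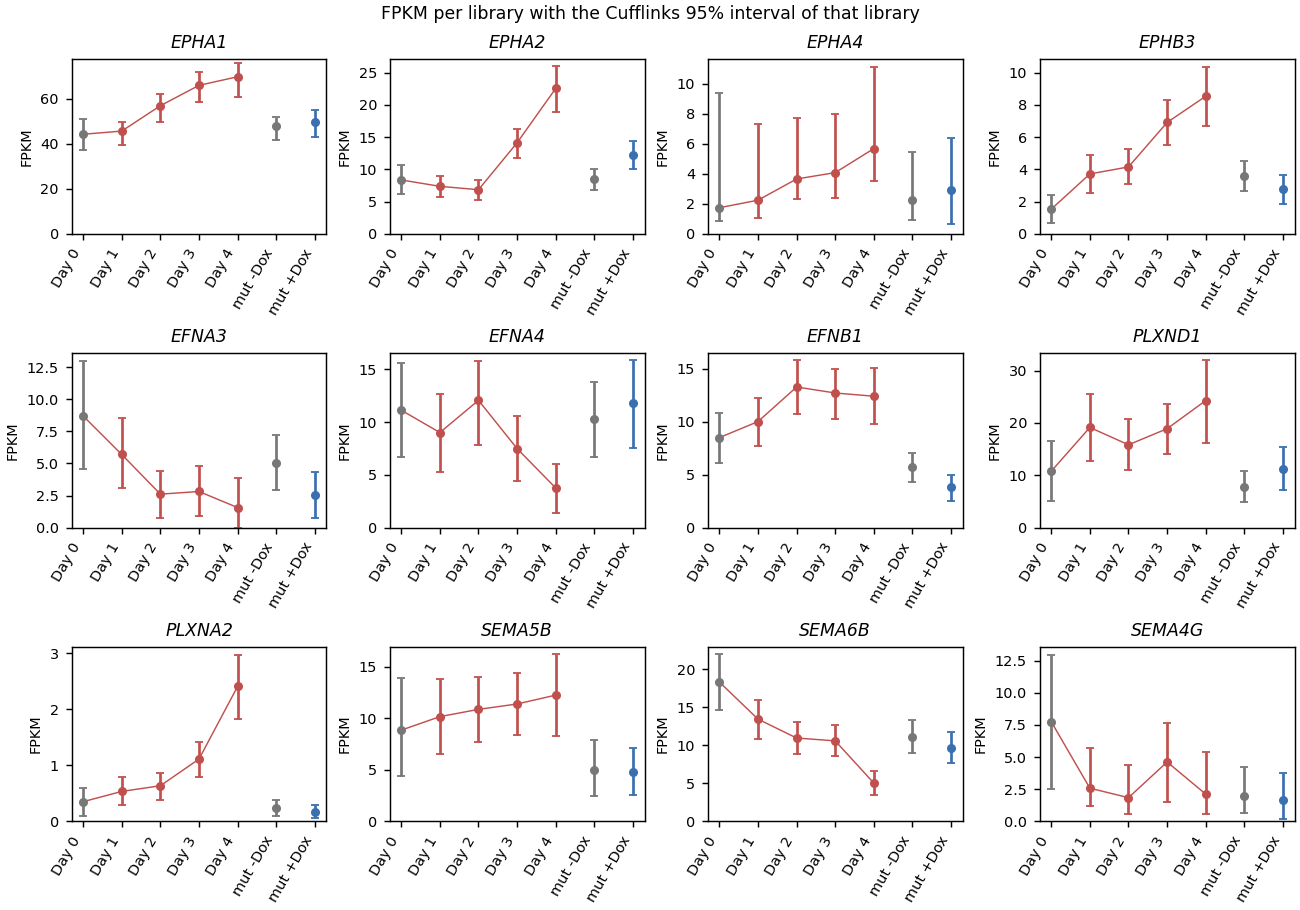
Points give the FPKM of 12 members in each library and bars the Cufflinks 95% interval of that library, in grey without Dox, red for JMJD3c with Dox (joined by a line from Day 0) and blue for the mutant with Dox (mut). EPHB3 and PLXNA2 climb from 1.53 and 0.350 FPKM at Day 0 to 8.54 and 2.41 at Day 4, the mutant points of EPHB3 lie at 3.58 and 2.78 FPKM, between Day 0 and Day 1, and those of PLXNA2 lie below Day 0, and for SEMA4G the Day 0 point is the high one.

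In the mutant line, which separates Dox and the inactive protein from demethylation, no member passed the cutoffs with Dox in either direction. Of the members, 23 had more than 4 FPKM in either library, and the background was 1.25% upregulated and 1.53% downregulated. The members still leaned downwards there: 16 were higher and 34 were lower with Dox, at a median log2 fold change of -0.18 against 0.00 over all genes. Among members above 1 FPKM in a library, 66.7% were lower, against 49% of all such genes. SEMA6D was listed at 2.42 and 0.218 FPKM, a ratio of 0.0900, but its intervals overlapped. The untreated lines also differed. Against Day 0, the untreated mutant line had 1 of 26 members past the cutoff as higher (EPHA7; background 2.78%) and 3 as lower (EFNA2, EPHB6 and SEMA4G; 7.01%). Day 0 held the highest value of the 7 libraries for several members that were lower at every later day. EFNA1, EFNA2, EFNA3, EPHB2, SEMA4B, SEMA4G and SEMA6B were among them.

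Signalling partners and other guidance systems were read from lists of genes. Of 40 genes that act with or below Eph receptors and plexins, 34 had more than 4 FPKM at Day 0 or Day 4, of which 1 was upregulated and 3 were downregulated, near the 5.87% and 7.56% of all genes, and the list had a median log2 fold change of -0.11 (all genes 0.00). MICAL3, of a family of enzymes that act on actin below plexins, had 7.66 FPKM before Dox and 18.6 at Day 4, with 6.60 and 5.27 in the mutant line. DPYSL3, a collapsin response mediator, was listed at 236.7, 209.6, 161.7, 120.5 and 92.0 FPKM at Days 0 to 4 and at 215.3 and 177.4 FPKM in the mutant line. FARP2, a Rac exchange factor that acts in semaphorin signalling, had 14.1 FPKM before Dox and 6.35 at Day 4, with 14.2 and 8.80 in the mutant line. L1CAM, an adhesion molecule that pairs with NRP1, was listed at 12.95 and 5.01 FPKM at Days 0 and 4, but at 5.08 and 5.78 FPKM in the mutant line, where its Day 4 value also lay. Of 25 Slit, Robo, netrin and RGM genes, 13 had more than 4 FPKM at Day 0 or Day 4, and 2 were upregulated and 2 downregulated (5.87% and 7.56% of all genes), with a median of 0.00. Against the untreated mutant line, the partner list had 2 upregulated and 5 downregulated of 34 at Day 4 (7.05% and 3.9% of all genes). The Slit, Robo, netrin and RGM list had 2 and 2 of 12. The genes called against Day 0 are given as values, and these few calls were not tested. NTN1, a netrin, was listed at 2.65, 5.18, 6.03, 6.86 and 9.92 FPKM at Days 0 to 4 and at 3.67 and 2.4 FPKM in the mutant line. SLIT2, a ligand of Robo receptors, was listed at 2.01, 2.52, 6.51, 7.13 and 7.78 FPKM and at 1.67 and 2.20 FPKM in the mutant line. Both were thus at Days 1 to 4 above every library without active JMJD3c (7.36% of all genes), SLIT2 at Day 1 by little. The receptors ROBO2 and ROBO3 were listed at 5.17 and 4.27 FPKM at Day 0 and 1.89 and 0.934 FPKM at Day 4, where the untreated mutant line had 4.24 and 0.828 FPKM, so ROBO3 was not lower at Day 4 than in that library.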

How the data were processed

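Poly(A) RNA of 7 cultures was sequenced as single-end reads of 150 bases on a MiSeq. The authors mapped reads to hg19 with TopHat2 2.0.13, calculated FPKM per gene with Cufflinks 2.1.1 and deposited the FPKM values with the bounds of their 95% intervals. The annotation and strand settings are not given in the sources used here. Samples were grouped by title. All 52 members were kept, none was marked as failed, and all of their 364 values lay inside their own intervals. Calls used ratios of 2 and 0.5 and a cutoff of 4 FPKM, and log2 values a pseudocount of 1. Depth was estimated from the commonest step among values below 1 FPKM of 282 genes with 1 exon and 1 transcript in GENCODE on GRCh37, with 200 bases subtracted from the transcript. Reads per gene assume the longest transcript and are approximate. With 1 library per condition no test was made. The functions were tested on simulated data.

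Values are given for members called at Day 4 against Day 0 or the untreated mutant line, members called in the mutant line, members whose Days 1 to 4 do not overlap the 3 libraries without active JMJD3c, the highest member of each family, and genes of the partner lists called at Day 4 against Day 0. For EPHB4 and PLXNB2, and for the days of Dox of SEMA6C, these are ranges. Other members are given by their ranges, and those given with single values beyond this were chosen after their values were seen. The members and lists were chosen with earlier results of these data known. Comparisons with the mutant with Dox, counts of steps and of Days 3 and 4 or Day 4 against 3 libraries, sums of EFNA3 and EFNA4 and the promoter and motif counts were added after the values were seen. Other cutoffs, pseudocounts, scalings, treated libraries and references were tried, with and without the intervals. Python 3.11.15, numpy 2.4.6, pandas 2.3.3 and matplotlib 3.10.9 were used.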

Additional observations from a re-analysis of the deposited data

Results flagged for a closer look

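For 3 members called at Day 4 against Day 0, the direction of the Dox change was opposite in the JMJD3c and mutant lines. The log2 fold change was -1.35 and 0.19 for EFNA4, 1.91 and -0.28 for EPHB3, and 1.13 and -1.49 for SEMA6D, in the JMJD3c and mutant lines respectively. With 1 library per condition the difference between the lines was not tested, and for all 3 genes the Cufflinks intervals with and without Dox overlapped in the mutant line.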

How the results depend on the processing

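With a cutoff of 1 FPKM, 8 members were upregulated at Day 4 against Day 0, and with no cutoff 10. With the Cufflinks intervals required to be apart, 2 were upregulated and 3 downregulated, and with Day 3 as the treated library 3 and 1. In an alternative added after the values were seen, 3 were downregulated against the untreated mutant line and 1 against the Dox-treated mutant line. In the mutant line, a cutoff of 1 FPKM gave 1 upregulated and 3 downregulated members, and no cutoff 1 and 7. Against the untreated mutant line, no cutoff gave 11 upregulated and 7 downregulated members at Day 4, and a cutoff of 1 FPKM gave 5 downregulated. Without Day 1, 12 members were above the 3 libraries without active JMJD3c on every remaining day. Without Day 0, also added later, 11 were above and 1 was below. The median log2 fold change at Day 4 was 0.24 against the Dox-treated mutant line, also added later, and between 0.05 and 0.20 under the others tried. For SEMA4G the sign turned, to 0.0498 against the untreated mutant line. Where these alternatives did not change a count by construction, the cause was not tested. Rescaling the libraries left 4 of the 6 downregulated calls at Day 4 against Day 0, ending those of EPHB2 and SEMA4B at ratios of 0.503 and 0.506, and kept all 5 upregulated calls. No paired analysis was possible because each condition has 1 library. Depth limits genes near 1 FPKM most.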
